A study of Mus musculus with 14 samples.

Results

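The cytosolic ribosomal protein genes were taken as every probe set whose only gene symbol in the platform annotation was Rpl or Rps followed by digits and at most 1 trailing letter, or Rplp0, Rplp2 or Rpsa, leaving out the ribosomal protein S6 kinases and pseudogenes. This rule, which uses no measured value, gave 94 probe sets of 42 genes, of 45037 probe sets and 18193 genes on the array. Of the 42 genes, 20 encode proteins of the large ribosomal subunit (40 probe sets), 20 encode proteins of the small subunit (52 probe sets) and 2, Rplp0 and Rplp2, encode proteins of the P stalk. Rplp1, Rpl5 and Rpl10 had no probe set of their own, and a further 110 probe sets that carry a ribosomal protein symbol among several symbols were outside the rule. Of the 94 probe sets, 38 have an identifier ending in _x_at and 3 in _s_at, which by the array's naming share probes with other transcripts, so that signals of near-identical genes and pseudogenes cannot be told apart.

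RNA of whole ovaries of mouse embryos was hybridised to 14 Affymetrix Mouse Genome 430 2.0 arrays. There were 3 control and 3 knockout ovaries at E14.5 and 4 control and 4 knockout ovaries at E16.5 (days of embryonic development), named as biological replicates. In the knockout, a tamoxifen-activated Cre recombinase, WT1-CreERT2, deletes the floxed gene of the nuclear receptor COUP-TFII (symbol Nr2f2) in cells that express Wt1, which in the fetal ovary are somatic cells. All groups, controls included, came from dams injected with tamoxifen at 2 mg per 10 g of body weight on E11.5 and E12.5, and all had the mixed C57BL/6, Swiss Webster and B6129SF1/J background. Neither the controls' genotype nor any pooling of animals is given in the sources used here. Each value is a probe set signal on a linear scale, and its level depends on the probes as well as on the RNA, so levels of different probe sets are not set against each other as amounts of RNA.

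Ribosomal proteins assemble with ribosomal RNA into a small subunit, which reads the messenger RNA, and a large subunit, which joins the amino acids; the P stalk on the large subunit recruits the translation factors. Their messenger RNAs are among the most abundant in growing cells, and many begin with a C followed by a run of pyrimidines, the terminal oligopyrimidine or TOP motif, through which mTOR signalling and the RNA-binding protein LARP1 control their translation. In the fetal ovary of these days, germ cells leave the mitotic cycle and enter meiosis while somatic cells become pre-granulosa or interstitial cells.

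The starts of these genes are shown first because the TOP letters are what the family is known to share at the sequence level. Of the 42 genes, 37 had an entry among the RefSeq promoters (mouse build GRCm38.p6, 250 bases before to 50 bases from the annotated start, 43 entries in all), and Rpl7, Rpl8, Rps14, Rps20 and Rps29 had none. A start at C inside a run of at least 5 pyrimidines was found at 8 of these 43 starts (18.6%), of 8 genes, against 823 of 32851 starts of all genes (2.51%). The windows below hold 10 bases before the start and 20 from it, 5′ to 3′, and the run of pyrimidines that begins at the annotated start is in capitals.
Rpl35, chr2:39005112-39005141, minus strand: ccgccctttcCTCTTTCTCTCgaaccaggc
Rps10, chr17:27635225-27635254, minus strand: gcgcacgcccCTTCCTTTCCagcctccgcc
Rps18, chr17:33955646-33955675, minus strand: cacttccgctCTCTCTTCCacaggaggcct
Rps6, chr4:86857348-86857377, minus strand: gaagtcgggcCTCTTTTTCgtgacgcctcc
Rpl38, chr11:114668570-114668599, plus strand: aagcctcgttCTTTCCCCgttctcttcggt
Rps27, chr3:90213629-90213658, minus strand: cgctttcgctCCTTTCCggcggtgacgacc
Rpl14, chr9:120571507-120571536, plus strand: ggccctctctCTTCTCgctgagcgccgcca
Rplp2, chr7:141447641-141447670, plus strand: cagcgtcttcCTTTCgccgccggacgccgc
The next 3 windows belong to the genes with the highest and lowest fitted changes between stages, Rpl27a and Rpl37, and to Rpl41, which had 4 probe sets; the run of Rpl27a is the longest of those shown but begins with T, and Rpl37 and Rpl41 have no pyrimidine at the annotated start.
Rpl27a, chr7:109519185-109519214, plus strand: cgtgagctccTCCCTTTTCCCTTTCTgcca
Rpl37, chr15:5116603-5116632, plus strand: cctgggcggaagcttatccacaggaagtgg
Rpl41, chr10:128549149-128549178, minus strand: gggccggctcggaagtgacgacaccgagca
A run of at least 8 pyrimidines within 20 bases on either side of the start was found at 18 of the 43 starts (41.9%) against 16.0% of all starts.

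The letters CCGGAAG, searched on both strands as the core recognised by ETS family factors, occurred in 18 of the 43 ribosomal protein promoters (41.9%) against 8.86% of all promoters of that length. GGGCGG, the letters bound by SP1, occurred in 23 (53.5%) against 35.7%. AAGATGG, as read by YY1, occurred in 7 (16.3%) against 6.34%, and TATAAA in 5 (11.6%) against 13.6%. The 200 bases upstream of Rps18 and Rpl37 are shown with CCGGAAG in capitals, because Rps18 holds it at 2 places and Rpl37 close to its start. These are matches of letters, not measured binding, and promoters of 1 gene overlap where it has several starts.
Rps18, chr17:33955666-33955865, minus strand: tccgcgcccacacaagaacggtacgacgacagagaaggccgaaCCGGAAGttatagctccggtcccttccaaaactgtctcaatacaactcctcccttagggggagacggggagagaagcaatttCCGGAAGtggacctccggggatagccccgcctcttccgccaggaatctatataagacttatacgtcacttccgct
Rpl37, chr15:5116413-5116612, plus strand: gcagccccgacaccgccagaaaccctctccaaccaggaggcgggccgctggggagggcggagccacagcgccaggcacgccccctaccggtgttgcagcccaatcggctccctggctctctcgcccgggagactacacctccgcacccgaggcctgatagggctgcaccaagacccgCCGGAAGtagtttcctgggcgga

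Arrays of a group correlated at 0.969 to 0.982 over all probe sets (log2 values), arrays of different stages at 0.857 to 0.877, and no arrays held identical values. The targeted gene Nr2f2 checked the labels: its probe set 1416160_at fell at E16.5 from 974 ± 72.4 (SD, n = 4) in controls to 329 ± 138 (SD, n = 4) in knockouts (log2 change -1.60 ± 0.22 SE, limma adjusted p = 0.00299). Its brightest probe set read 4332 ± 467 and 2534 ± 575 (SD, n = 4 each) at E16.5, without overlap. At E14.5 that probe set had 377 ± 143 (SD, n = 3) and 225 ± 60.9 (SD, n = 3) (limma adjusted p = 0.493). Ovary markers were present on every array, with Foxl2, of pre-granulosa cells, at 1153 to 2695 and Ddx4, of germ cells, at 1097 to 9141.

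The ribosomal protein probe sets were among the brightest of the array in every group. Of the 94, 85 probe sets of 41 genes passed the filter on low values, a mean log2 signal over the 40th percentile (a signal of 62.05). Of the 85, 64 had a mean signal above 10000, 9 lay between 1000 and 10000, and 12 were at or below 1000. The median over all 94, the 9 untested ones included, was a signal of 24256 to 25424 on the E14.5 arrays and 11085 to 14968 on the E16.5 arrays. These ranges did not overlap between stages. The median over all probe sets lay between 90.0 and 102 on the E14.5 arrays and between 118 and 136 on the E16.5 arrays. Within a stage, controls and knockouts overlapped in the median over the 94.

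**Figure D1:**
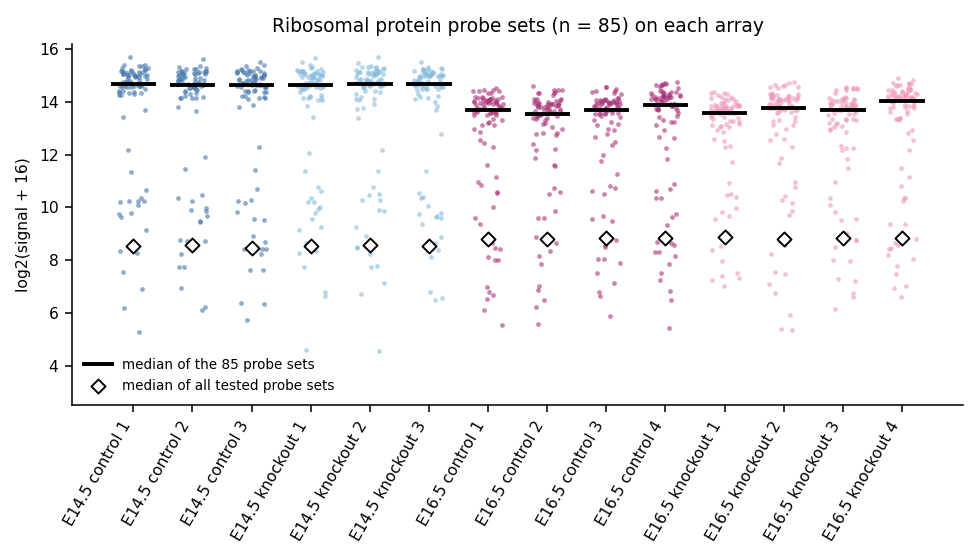
Each point is 1 of the 85 tested ribosomal protein probe sets on 1 array, as log2(signal + 16); bars mark their median and diamonds the median of all tested probe sets. In the deposited scaling the bars lie at 14.62 to 14.68 on the 6 E14.5 arrays and at 13.56 to 14.04 on the 8 E16.5 arrays. With quantile normalization the median log2 change of the 85 between the stages in controls was -0.16.

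The 12 dim probe sets did not mark 12 dim genes. Of the 41 genes tested, 33 had at least 1 probe set above 10000, and only Rpl12, Rpl14, Rpl27a, Rpl37, Rpl39, Rps25, Rps27 and Rps6 had none. The 3 probe sets just above the filter were Rpl35 1454833_at, Rps10 1436384_at and Rps18 1421837_at, with means over all arrays of 91.8, 92.3 and 100.3, and each of these genes also had probe sets above 10000.

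The other 9 probe sets were not tested. They belong to Rpl27a, Rps16, Rps18 (2 probe sets), Rps24, Rps3, Rps4x, Rps6 and Rpsa, and for Rps16 it was the only probe set. Just below the filter lay Rpsa 1416196_at, with 52.0, 3.35 and 67.2 in E14.5 controls, 22.5, 25.3 and 40.1 in E14.5 knockouts, 59.2, 53.7, 62.2 and 49.7 in E16.5 controls, and 86.3, 90.6, 100.5 and 93.04 in E16.5 knockouts. The last group lay above the others, and 100.5 was the highest signal of any of the 9 on any array. Rpsa, which encodes a small subunit protein also known as the laminin receptor, had another probe set at 13712 to 34572.

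No tested ribosomal protein probe set passed the threshold between knockout and control ovaries at E14.5. At an adjusted p under 0.05, limma called 0 of 85 higher and 0 lower, where 0.0148% and 0.0074% of the 27022 probe sets tested were called, and 2 of the 85 had an unadjusted p under 0.05, as had 2170 of the 27022. The median change over the 85 was a log2 change of 0.014, against 0.012 over all probe sets tested. Arrays of the genotypes did not overlap for 3 probe sets as higher and 2 as lower in knockouts, against 6.5% and 4.86% of all. The medians were 0.020 for the large subunit, 0.011 for the small subunit and 0.18 for the 2 probe sets of the P stalk.

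For the bright probe sets this comparison was narrow. Among the 64 with a mean above 10000, log2 changes ran from -0.19 to 0.36 with a median standard error of 0.12, and the 95% interval lay within ±1 for 64 and within ±0.5 for 61. Among the 21 at 10000 or below, changes ran from -0.49 to 0.83, and 17 intervals lay within ±1 and 10 within ±0.5. With so few arrays, smaller changes of single probe sets were not detectable, and a change in a part of the cells of a whole ovary would appear diluted.

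The highest change at E14.5 was that of Rps27, a small subunit protein with a zinc finger, whose single tested probe set read 543, 195 and 180 in controls and 543, 337 and 643 in knockouts. The groups overlapped and the log2 change was 0.83 ± 0.69 SE (limma adjusted p = 0.820). Rpl35 1454833_at, a dim probe set of a large subunit protein near the exit of the peptide tunnel, read 57.0, 57.9 and 64.6 in controls and 94.7, 123 and 78.7 in knockouts, with all knockouts above all controls (log2 change 0.58 ± 0.25 SE, limma adjusted p = 0.570). The bright probe set of the same gene, 1434231_x_at, gave 30295 ± 1263 for controls and 31174 ± 1555 for knockouts (SD, n = 3 each; log2 change 0.041 ± 0.13).

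Rplp0, the protein that anchors the P stalk, read 25158, 18843 and 18401 in controls and 23834, 29728 and 25898 in knockouts at E14.5. Control replicate 1 lay among the knockouts, and the log2 change was 0.36 ± 0.15 SE (limma adjusted p = 0.559). Rpl14, of the large subunit, had a change of 0.41 ± 0.28. The lowest changes were those of Rps18 1421837_at (-0.49 ± 0.40), Rpl41 1422623_x_at (-0.19 ± 0.14), Rps3 1455600_at (-0.19 ± 0.14) and Rpl39 1423032_at (-0.18 ± 0.36), none past the threshold. Rps6, the small subunit protein phosphorylated by S6 kinase, had a change of -0.045 ± 0.19 and Rps19, which small subunit maturation needs and which is mutated in Diamond-Blackfan anaemia, of 0.017 ± 0.11.

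At E16.5 the ribosomal protein probe sets again gave no call. Limma called 0 of 85 higher and 0 lower, where 0.537% and 0.381% of all probe sets tested were called, and 6 of the 85 had an unadjusted p under 0.05, as had 4348 of the 27022. The median log2 change was 0.061 over the 85 and 0.016 over all probe sets. Arrays did not overlap for 2 probe sets as higher and 0 as lower, against 4.85% and 5.13% of all. By class it was 0.062 for the large subunit, 0.059 for the small subunit and 0.091 for the P stalk.

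For the bright probe sets the comparison was narrow at this stage too. Changes of the 64 above 10000 ran from -0.14 to 0.67 with a median standard error of 0.11, and the 95% interval lay within ±1 for 63 and within ±0.5 for 61. Rpl7 1426163_x_at was the probe set outside ±1. Among the 21 at 10000 or below, changes ran from -0.42 to 0.77, and 15 intervals lay within ±1 and 9 within ±0.5. The P stalk genes had changes of 0.22 ± 0.13 (Rplp0) and -0.036 ± 0.13 (Rplp2), Rpsa -0.0078 ± 0.097, Rps19 0.13 ± 0.098, Rps4x 0.066 ± 0.079, Rpl38 0.11 ± 0.11 and Rpl11, which together with Rpl5 can bind the p53 regulator Mdm2, -0.11 ± 0.12.

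**Figure D2:**
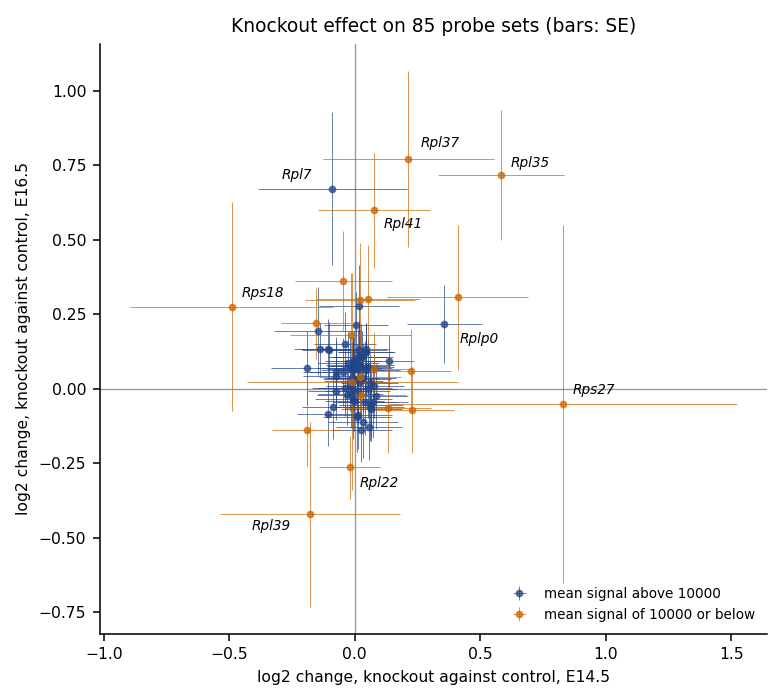
Log2 change between knockout and control at E14.5 (x axis) and E16.5 (y axis) for the 85 tested ribosomal protein probe sets, with standard errors as bars and colour by mean signal. The 64 probe sets above 10000 gather near 0, between -0.19 and 0.36 at E14.5 and between -0.14 and 0.67 at E16.5, and the farther points are mostly dim probe sets with wide bars; none passed the threshold at either stage.

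The 4 highest changes at E16.5 were those of Rpl37, Rpl35, Rpl7 and Rpl41, all of the large subunit. Rpl37, a zinc finger protein of the large subunit, read 30.3, 31.5, 42.8 and 26.9 in controls and 152, 25.4, 54.3 and 80.1 in knockouts (log2 change 0.77 ± 0.30 SE, limma adjusted p = 0.214). Knockout replicate 2 lay below every control and the others above. Rpl35 1454833_at read 52.8, 58.3, 83.1 and 97.0 in controls and 143, 121, 91.4 and 162 in knockouts, with 1 knockout inside the range of controls (0.72 ± 0.22, limma adjusted p = 0.128).

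Rpl7 1426163_x_at read 2272, 3082, 1682 and 1562 in controls and 4937, 1731, 4815 and 2903 in knockouts at E16.5 (0.67 ± 0.26, limma adjusted p = 0.213). The other 2 probe sets of Rpl7, a large subunit protein, had changes of 0.094 ± 0.079 and 0.0088 ± 0.083. Without knockout replicate 2, which was the lowest knockout array for both, Rpl7 1426163_x_at (0.98, limma adjusted p = 0.0207) and Rpl37 (1.10, limma adjusted p = 0.0276) passed. With the log2 difference of the 3′ and 5′ Gapdh control probe sets as a covariate, the change of Rpl37 was 0.072; that difference, a measure of RNA integrity and labelling, was 0.94 in knockout replicate 1 and 1.31 in replicate 4, where Rpl37 was highest, and 1.57 to 1.82 on the other E16.5 arrays. Whether it accounts for the change of Rpl37 was not tested.

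Rpl41, the gene of a very small basic protein of the large subunit, had a probe set, 1454639_x_at, at 333, 312, 367 and 298 in controls and 742, 471, 422 and 432 in knockouts, so that all knockouts lay above all controls (0.60 ± 0.19, limma adjusted p = 0.145). A second, 1433530_at, also did not overlap, with means of 261 ± 9.58 and 326 ± 30.1 (SD, n = 4 each; 0.30 ± 0.19). The 2 brighter probe sets of Rpl41 had changes of 0.070 ± 0.12 and 0.080 ± 0.12.

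The lowest changes at E16.5 belonged to Rpl39, a small protein of the peptide tunnel, with 111, 102, 245 and 135 in controls and 137, 44.9, 142 and 108 in knockouts (-0.42 ± 0.31, limma adjusted p = 0.534), and to Rpl22 1448398_s_at, an RNA-binding large subunit protein, with 1523, 1497, 1573 and 1280 in controls and 1408, 1126, 1079 and 1280 in knockouts (-0.26 ± 0.11, limma adjusted p = 0.232). Rpl19 1416219_at and Rps3 1455600_at each had a change of -0.14. The groups overlapped for Rpl39 and Rpl22.

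No ribosomal protein probe set passed the test of a knockout effect that differs between stages. The interaction test of limma called 0 of 85 and 0 of all 27022 probe sets (0% in either direction); at an unadjusted p under 0.05 it had 0 of the 85 and 2255 of all. The highest interactions were those of Rps18 1421837_at (0.77 ± 0.53) and Rpl7 1426163_x_at (0.76 ± 0.39), and the lowest that of Rps27 (-0.88 ± 0.92).

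Beside these comparisons, markers of cell types moved with the knockout at E16.5: 9 of 14 probe sets of interstitial cell markers, Nr2f2 among them, fell (median -1.22), their summed signal being 10663 to 12031 in controls and 4852 to 7444 in knockouts. Nr2f2, the deleted gene, held 3819 to 4950 and 2053 to 3359 of these sums, so part of the fall was set by the knockout itself. Pdgfra (2735 to 3409 and 1127 to 1669), Tcf21 (2175 to 2596 and 872 to 1685) and Wnt5a (1355 to 1730 and 454 to 716) fell without overlap, while Gli1 overlapped. Summed surface and duct epithelium markers were 6776 to 7979 and 9559 to 13043 with 1 of 10 probe sets called, and adrenal cortex markers 256 to 416 and 754 to 1073 with 2 of 3 called. Summed pre-granulosa markers were 19270 to 21486 and 15140 to 18771 with 2 of 19 called lower. At E14.5 none of these lists had a call, but the epithelium sums were 5722 to 6690 in controls and 7879 to 10485 in knockouts and the adrenal sums 295 to 578 and 643 to 934, without overlap. The part of these markers in the ribosomal protein values was not tested. In a bulk sample, fewer cells of a type and less RNA per cell cannot be told apart.

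Between E14.5 and E16.5 the deposited signals of ribosomal protein genes were lower at the later stage in controls. Of 85 probe sets, 73 were called lower and 6 higher, where 31.1% and 35.9% of all probe sets tested were called (8399 and 9696). But with quantile normalization 40 were lower and 20 higher, where 10086 and 8234 of all probe sets tested were called. The median log2 change was -0.87 over the 85 against 0.059 over all probe sets, -0.16 against -0.11 with quantile normalization, and -1.21 against -0.28 with median centring. In knockouts 71 were lower and 6 higher, where 29.6% and 34.5% of all were called (8008 and 9330). But with quantile normalization 40 were lower and 16 higher in knockouts, where 9699 and 7870 of all were called. Arrays of the stages did not overlap for 72 probe sets as lower and 6 as higher in controls, against 32.2% and 36.8% of all, and for 70 and 5 in knockouts, against 27.8% and 32.2%. The comparisons in controls and in knockouts share no array. They do share 1 estimate of the spread and the differences in array measures between stages given below, so they are not independent. Of the calls among ribosomal protein probe sets in controls, 7.59% were higher in the deposited scaling and 33.3% with quantile normalization, and among all calls 53.6%, 44.9% and, with median centring, 37.2%.

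How far the family stood out between stages thus depended on the scaling. Relative to the median of all probe sets, the ribosomal protein median was lower by a log2 difference of -0.93 in the deposited scaling and with median centring, and of -0.047 with quantile normalization. The members' share of the summed signal was 5.36 to 5.54% on E14.5 arrays and 2.96 to 3.85% on E16.5 arrays. The number of all probe sets above a signal of 10000 also differed, 545 to 581 against 277 to 375, and 65 members lay above it on each E14.5 array against 50 to 61 at E16.5.

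Other bright probe sets were also mostly lower in the deposited scaling, and less so with quantile normalization. Quantile normalization gives every array the same distribution, so it takes out a fall shared by the brightest probe sets by construction. Its medians for bright probe sets therefore cannot tell whether they fell together. Of 396 probe sets above 10000, 64 were members and 78 carried a ribosomal protein symbol among several. Of 254 probe sets with a mean above 10000 and no ribosomal protein symbol, 198 were lower and 21 higher in controls (median -0.77; 104, 76 and -0.11 with quantile normalization), and of the 64 ribosomal protein probe sets above 10000, 63 were lower and 0 higher (median -0.98; 29, 15 and -0.13 with quantile normalization). Between signals of 16384 and 32768, 51 members and 67 other probe sets both had a median of -0.89, and -0.11 and -0.10 with quantile normalization. Between 8192 and 16384, 13 members had a median of -1.35 and 343 others of -0.59, and -0.80 and -0.08 with quantile normalization. The 105 tested probe sets with a ribosomal protein symbol among several had 86 lower and 6 higher (median -0.89), but 44 and 28 with quantile normalization.

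**Figure D3:**
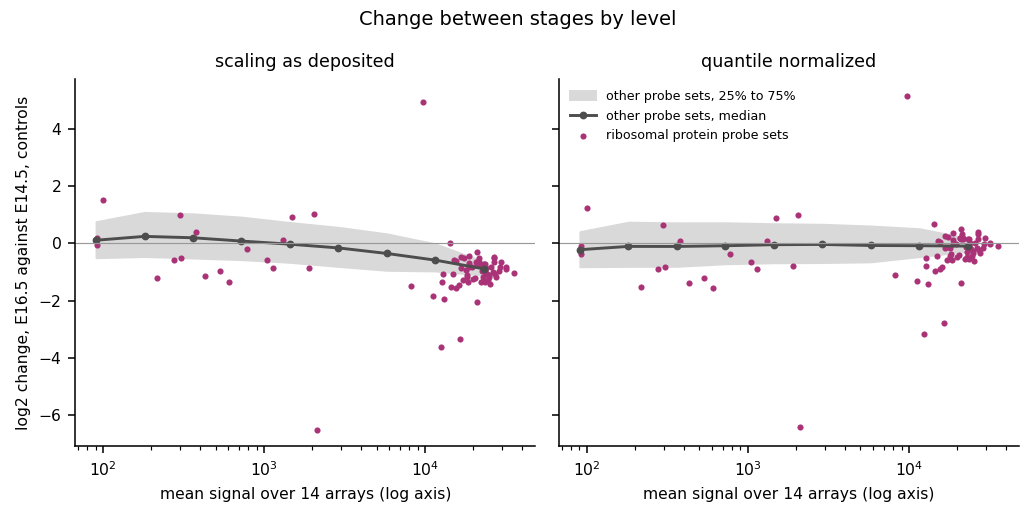
Log2 change from E14.5 to E16.5 in controls (y axis) against mean signal over 14 arrays (log x axis) in the deposited scaling (left) and with quantile normalization (right); points are ribosomal protein probe sets, the line is the median and the band the middle 50% of other probe sets in each doubling of signal. On the left the median of other probe sets declines to -0.89 at signals of 16384 to 32768, where the members also have -0.89; on the right the medians there are -0.10 and -0.11.

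Array measures differed between stages as well. The Gapdh 3′ minus 5′ log2 difference ran from -0.42 to -0.06 on E14.5 arrays and from 0.94 to 1.82 on E16.5 arrays, and the same for actin from 0.80 to 0.98 and from -0.02 to 0.29. The spiked bioB hybridisation control read 1429 to 1940 on E14.5 arrays and 4555 to 18373 on E16.5 arrays. The ribosomal RNA control at its 3′ end read 7321 to 14405 on the former and 18055 to 26448 on the latter, and at its 5′ end 18542 to 25492 and 13845 to 19941. With the Gapdh difference as a covariate, 19 of the 85 were lower and 0 higher in controls, and 35 and 0 in knockouts. Over all probe sets tested, 712 were lower and 1261 higher in controls with this covariate, and 1188 and 2156 in knockouts. These calls were also far fewer than without the covariate, and more of them were higher than lower. The share called lower was larger among the 85 than among all probe sets, in controls and in knockouts. Germ cell markers fell in controls for 9 of 9 probe sets under all 3 scalings (median -2.46 as deposited), with summed signals of 61359 to 72442 and 13648 to 18870. Summed red cell markers were 34785 to 43473 and 1652 to 9967, with 7 of 11 probe sets called lower and 3 higher. Most of the E14.5 sum was the globin Hbb-y, at 30459 to 40711 and then 432 to 1212. Slc4a1 read 243 to 1859 and then 646 to 6966, and Alas2 167 to 431 and then 406 to 1224. Stage and these array measures cannot be told apart, and the part of the markers in the result was not tested.

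By subunit, 34 of 39 large subunit probe sets were lower and 2 higher in controls (median -0.87), 37 of 44 small subunit probe sets lower and 4 higher (-0.86), and both P stalk probe sets lower (-1.29). With quantile normalization the counts were 20 and 12, 18 and 8, and 2 and 0. By probe set design, 36 of 36 tested _x_at probe sets, 23 of 25 _a_at and 11 of 21 _at probe sets were lower in the deposited scaling, against 5 of 21 _at and 1 of 25 _a_at higher. With quantile normalization 18, 13 and 8 were lower and 7, 6 and 7 higher. By level, 63 of 64 members above 10000 were lower and 0 higher as deposited. Of the 21 at 10000 or below, 10 were lower and 6 higher. A difference by design apart from level was not tested.

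Under all 3 scalings, 39 probe sets of 23 genes were lower in controls and 37 probe sets of 25 genes in knockouts. The deposited scaling and quantile normalization alone gave the same 39 and 37. Median centring shifts each array by 1 constant, which here moved the stage changes further down. It therefore added no test of a lower call. The P stalk was among the genes lower under all 3. Rplp0 read 25158, 18843 and 18401 at E14.5 and 7472, 6906, 6511 and 7844 at E16.5 in controls, with no overlap (-1.52 ± 0.14 SE, limma adjusted p = 4.14e-08; -0.97 with quantile normalization). Rplp2, the acidic protein of the stalk whose start carries the TOP letters CTTTC shown above, had 38812 ± 1239 (SD, n = 3) and 18710 ± 3282 (SD, n = 4) (-1.07 ± 0.14; -0.24 with quantile normalization).

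Rpl37 went from a clear signal to the low end of the array. Its probe set read 4584, 3826 and 4989 in E14.5 controls and 4255, 4597 and 6994 in E14.5 knockouts, against the 25.4 to 152 of the E16.5 arrays given above. All E16.5 controls lay below the filter signal of 62.05, so that the probe set passed through E14.5 and the size of the change depends on the pseudocount. The log2 change was -6.52 ± 0.32 SE in controls and -5.96 ± 0.32 in knockouts, -7.06 and -6.30 with a pseudocount of 1, and -5.54 and -5.28 with a pseudocount of 64. With the Gapdh covariate the changes were -2.79 and -2.86 and no longer passed (limma adjusted p = 0.125 and 0.0502). Rpl37 had no second probe set of its own to compare.

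Rpl27a, also of the large subunit, had the highest change. Its probe set 1437729_at read 1190, 404 and 281 in E14.5 controls, 1157, 356 and 322 in E14.5 knockouts, 16133, 14330, 16001 and 19133 in E16.5 controls and 14190, 17855, 15935 and 18738 in E16.5 knockouts. Replicate 1 was the highest of both E14.5 groups, and no E14.5 array reached the E16.5 range. The log2 change was 4.94 ± 0.39 in controls (limma adjusted p = 6.04e-09) and 4.97 ± 0.39 in knockouts (limma adjusted p = 6.48e-09), 5.17 and 5.25 with quantile normalization, and 2.69 in controls with the Gapdh covariate, where it no longer passed (limma adjusted p = 0.348).

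Among other large subunit genes, the brightest probe set of Rpl41 fell from 19787 ± 3009 (SD, n = 3) to 5533 ± 778 (SD, n = 4) in controls (-1.84 ± 0.13). Rpl7 1415979_x_at had a log2 change of -1.23 ± 0.085, Rpl13a 1455485_x_at of -1.18 ± 0.10, and Rpl39, with 309, 410 and 324 against 111, 102, 245 and 135, of -1.21 ± 0.34. These 4 kept the direction under the 3 scalings, while Rpl39 had 0.75 with the Gapdh covariate. Rpl11 had a change of -0.94 ± 0.13 but of -0.15, not passed, with quantile normalization, and Rpl38, known for its part in the translation of Hox messages, of -0.65 ± 0.12 but 0.17, as higher, with quantile normalization.

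Among small subunit genes, Rps19 fell from 24804, 23953 and 24796 to 8889, 7214, 7921 and 9695 in controls (-1.55 ± 0.11, limma adjusted p = 8.34e-10; -0.91 with quantile normalization). Rps4x, encoded on the X chromosome, changed by -1.36 ± 0.085, Rps2 by -1.34 ± 0.12, Rps18 1455572_x_at by -1.34 ± 0.15 and Rps7 1419364_a_at by -1.31 ± 0.11, and all 4 were called lower under the 3 scalings. Rps6 had 1288, 1419 and 1634 at E14.5 and 640, 913, 795 and 852 at E16.5 (-0.85 ± 0.18), also lower under the 3 scalings. Rpsa changed by -0.98 ± 0.11 but by -0.11, not passed, with quantile normalization.

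In knockouts the same named probe sets were called lower in the deposited scaling, with log2 changes of -1.66 ± 0.14 for Rplp0, -1.57 ± 0.13 for Rpl41 1422623_x_at, -1.46 ± 0.34 for Rpl39, -1.43 ± 0.11 for Rps19, -1.32 ± 0.12 for Rps2, -1.31 ± 0.085 for Rps4x, -1.21 ± 0.11 for Rps7 1419364_a_at, -1.14 ± 0.10 for Rpl13a 1455485_x_at and -1.13 ± 0.085 for Rpl7 1415979_x_at. These 9 were also lower with both other scalings.

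A few probe sets were higher at E16.5 in controls under all 3 scalings: those of Rpl27a, Rpl14 and Rps25, and dim ones of Rps18 and Rps20. Rpl14 read 1199, 943 and 1144 at E14.5 and 1982, 3698, 1764 and 1882 at E16.5, with no overlap (1.02 ± 0.26, limma adjusted p = 0.00248). Rps25, a small subunit protein used by viral internal ribosome entry sites, read 1076, 982 and 891 and then 1813, 1679, 2434 and 1641 (0.92 ± 0.16, limma adjusted p = 7.1e-05). With the Gapdh covariate they turned to -1.08 and -0.41. In knockouts, Rpl27a, Rps25 and the dim probe set of Rps18 were higher under all 3. Rpl12, a large subunit protein, had 839, 906 and 733 and then 757, 754, 697 and 631 (-0.21 ± 0.13, not passed).

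The 8 genes whose start carries the TOP letters did not all move one way. At their brightest probe sets, Rplp2, Rps10, Rps18 and Rps6 were lower in controls under all 3 scalings. Rpl35 and Rpl38 were lower in the deposited scaling but higher with quantile normalization, Rpl14 was higher under all 3, and Rps27 (-0.53 ± 0.65) passed under none.

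**Figure D4:**
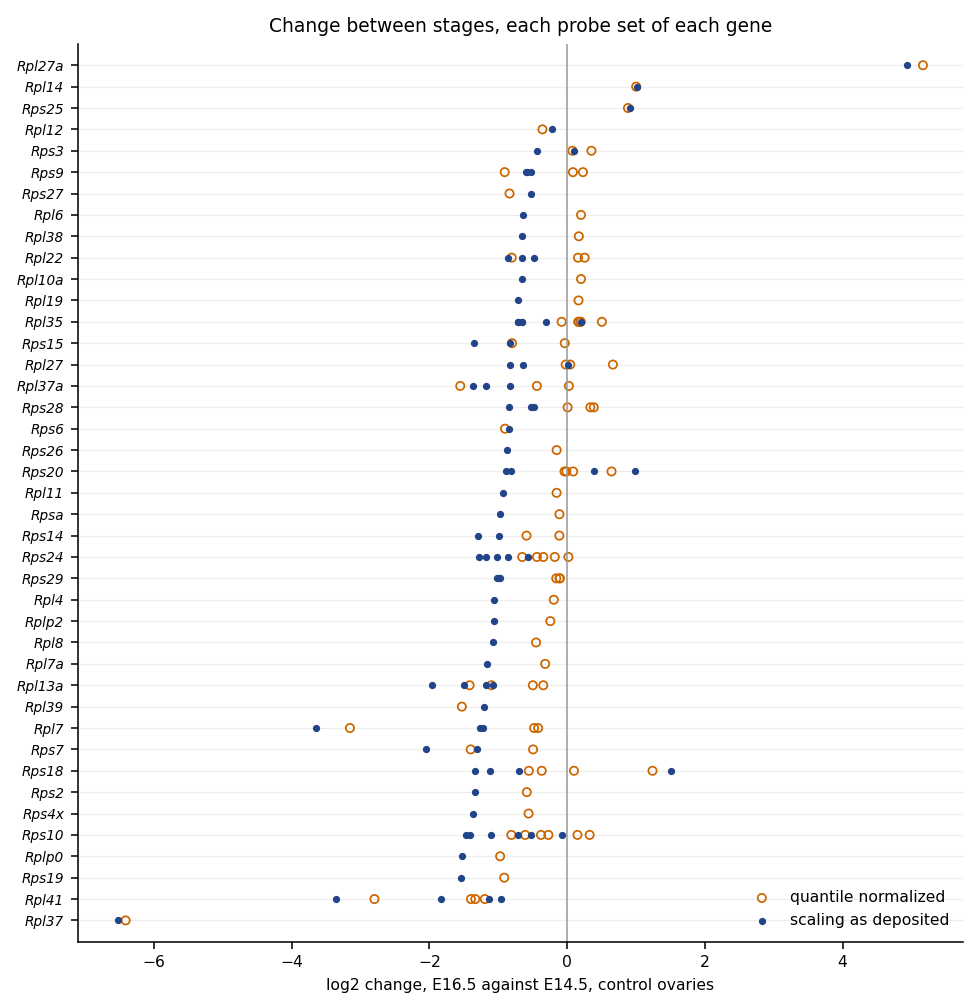
Log2 change from E14.5 to E16.5 in controls for each tested probe set of the 41 ribosomal protein genes, in the deposited scaling (filled) and with quantile normalization (open), genes ordered by the change of their brightest probe set. Rpl27a (4.94) and Rpl37 (-6.52) stand far from 0 in both scalings, while most open points lie closer to 0 than the filled points and 14 probe sets that were lower as deposited were higher with quantile normalization.

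Probe sets of 1 gene did not always report the same stage change. For every gene with at least 2 tested probe sets, each probe set was compared, on each array, with the brightest of its gene, so that a scaling factor of the array cancels, and the difference was fitted over 10866 differences of 6143 genes. Of 44 differences in 18 ribosomal protein genes, 18 rose and 12 fell in controls, where 45.6% and 28.2% of all differences were called, and 19 rose and 12 fell in knockouts, where 44.9% and 26.5% were called. In the deposited scaling the family's counts lay near this background. With quantile normalization, which is not a single factor per array, 10 rose and 16 fell in controls and 8 and 19 in knockouts. Among all differences more rose than fell in that setting, so the family did not follow the background there. With the Gapdh covariate the counts were 0 and 0 in controls, and 4 and 2 in knockouts. Calls among all differences were also far fewer with that covariate, and more of them rose than fell.

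Rps18 had a dim probe set that went the other way than its bright one. The dim 1421837_at read 22.4, 53.7 and 36.6 at E14.5 and 94.8, 115, 168 and 164 at E16.5 in controls, with no overlap (1.51 ± 0.38). Its E14.5 controls all lie below the filter signal of 62.05, so that it passed only through E16.5 and the size of its change depends on the pseudocount. Its brightest probe set, 1455572_x_at, read 35146, 30453 and 32846 and then 12936, 11602, 12311 and 14973. The difference from the brightest was 2.85 ± 0.38 in controls and 3.36 ± 0.38 in knockouts, 3.21 and 4.27 with a pseudocount of 1, and 2.31 and 2.44 with a pseudocount of 64.

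Rps20, of the small subunit, showed the same split between dim and bright probe sets. The dim 1421935_at rose from 170, 199 and 184 to 326, 387, 420 and 389 (0.98 ± 0.16), while 1456373_x_at had 42261 ± 941 (SD, n = 3) and 22938 ± 2257 (SD, n = 4); the difference was 1.87 ± 0.18 in controls and 1.54 ± 0.18 in knockouts. Another probe set, 1450417_a_at, differed from the brightest by 1.28 ± 0.20.

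Rpl7 and Rpl41 had bright probe sets that fell by different amounts. Rpl7 1426163_x_at fell from 24852, 26388 and 26972 to 2272, 3082, 1682 and 1562 in controls (-3.64 ± 0.28), while 1415979_x_at and 1426162_a_at had changes of -1.23 and -1.26; the difference from the brightest was -2.42 ± 0.29 in controls, -1.76 ± 0.29 in knockouts, and 0.28 and 0.49 with the Gapdh covariate. Rpl41 1455578_x_at fell from 33586, 34456 and 33530 to 3075, 3041, 3472 and 3675 (-3.35 ± 0.13, limma adjusted p = 7.23e-13), against -1.84 for 1422623_x_at. That difference was -1.52 ± 0.11 in controls (limma adjusted p = 2.57e-10) and -1.72 ± 0.11 in knockouts.

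Smaller differences were called in Rps10, Rpl35, Rpl27, Rpl13a, Rps7 and Rps3. Rpl27 1448217_a_at read 13238, 14226 and 14397 at E14.5 and 14296, 12053, 13821 and 16588 at E16.5, overlapping, while 1416099_at fell from 25769 ± 331 (SD, n = 3) to 14574 ± 2019 (SD, n = 4) (difference 0.85 ± 0.071). Rps7 1435593_x_at had a change of -2.05 ± 0.096 against -1.31 for 1419364_a_at (difference -0.74 ± 0.075), and Rpl13a 1417608_a_at of -1.96 ± 0.12 against -1.18 for 1455485_x_at (difference -0.78 ± 0.11, but 0.27 with the Gapdh covariate). The differences of dim probe sets of Rps10 (1.04 ± 0.25), Rpl35 (0.92 ± 0.26) and Rps3 (0.54 ± 0.17) turned to -0.11, -0.24 and -0.28 with quantile normalization.

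Other genes had probe sets that ran together. The 3 probe sets of Rps29, of the small subunit, had changes of -0.98, -0.98 and -1.02 in controls, and the differences of 0.041 ± 0.077 and 0.039 ± 0.080 did not pass. Rpl7 1426162_a_at differed from 1415979_x_at by -0.038 ± 0.063, and Rpl35 1455950_x_at from 1434231_x_at by less than its standard error of 0.061.

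**Figure D5:**
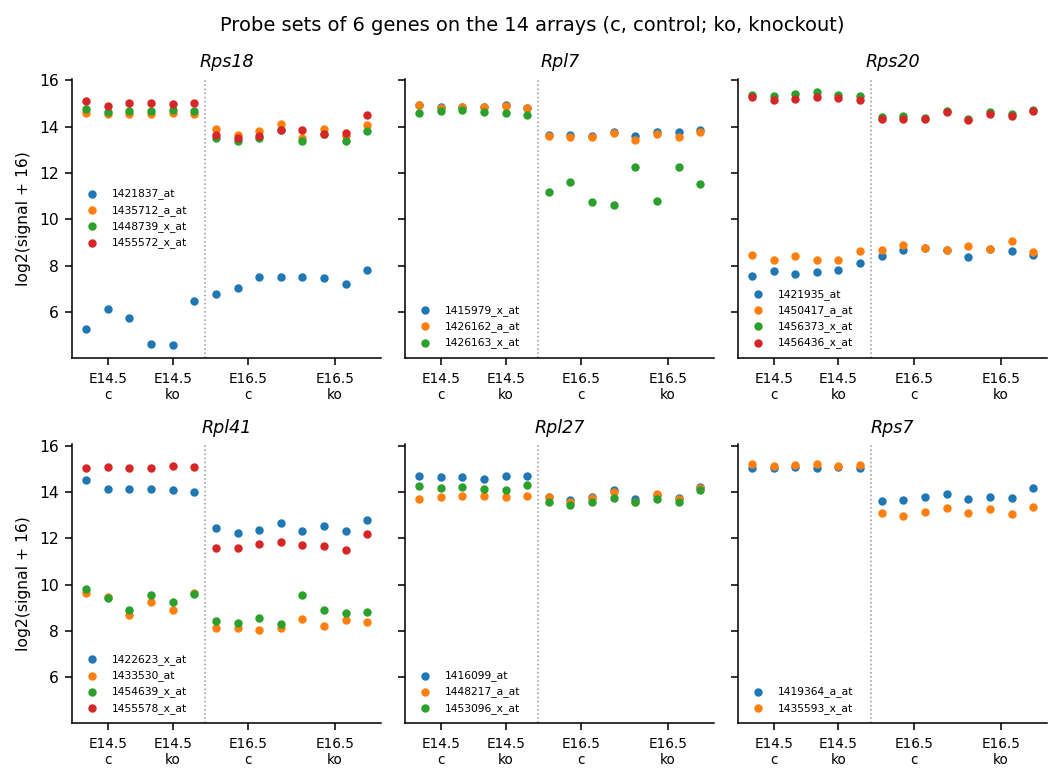
Log2(signal + 16) of every tested probe set of 6 ribosomal protein genes on the 14 arrays, in the order of groups on the x axis (c, control; ko, knockout), with a dotted line between stages. Rps18 and Rps20 have bright probe sets that are lower at E16.5 and dim ones that are higher, and 1 probe set each of Rpl7 and Rpl41 falls farther than its partners, by differences of -2.42 and -1.52 in controls.

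Genes that act with the ribosome also gave no call for the knockout at either stage. Among probe sets of elongation factors and other TOP messages (35), initiation factors (69), ribosome biogenesis and RNA polymerase I (64), paralogues of ribosomal protein genes (9), mTOR, MYC and p53 regulators (33) and mitochondrial ribosomal proteins (140), limma called 0 at E14.5 and 0 at E16.5, where 0.0148% and 0.0074%, and 0.537% and 0.381%, of all were called. At an unadjusted p under 0.05 there were 0, 2, 6, 1, 1 and 7 at E14.5 and 3, 10, 12, 3, 6 and 25 at E16.5, against 2170 and 4348 of the 27022. The median changes at E16.5 were 0.0041, -0.031, 0.064, 0.23, 0.045 and 0.087.

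Between stages in controls, 31.1% of all probe sets were lower and 35.9% higher in the deposited scaling (8399 and 9696 probe sets). The deposited counts of the 6 lists are set against these, and no test compared the lists. With quantile normalization 10086 of all probe sets tested were lower and 8234 higher. With median centring, which moved the stage changes of all probe sets down, 11816 were lower and 7014 higher. In that last setting there were 26 lower and 5 higher of the TOP list and 47 and 9 of initiation factors. Biogenesis had 34 and 9, and mitochondrial ribosomal proteins 81 and 20. Of the 35 probe sets of elongation factors and other TOP messages, 19 were lower and 7 higher (median -0.35), but 12 and 13 with quantile normalization. Pabpc1, the poly(A)-binding protein, fell from 29189 ± 1776 (SD, n = 3) to 8832 ± 713 (SD, n = 4) (-1.72 ± 0.10) and Npm1, a nucleolar chaperone, had -1.71 ± 0.11 at 1415839_a_at, though another probe set of Npm1 turned from -0.42 to 0.36 with quantile normalization. Of initiation factors 40 of 69 were lower and 15 higher (37 and 17 with quantile normalization), with the helicase Eif4a1 at -1.57 ± 0.10 and probe sets of the scaffold Eif3a at 2.44 ± 0.16 and -1.39 ± 0.10.

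Of the 64 biogenesis probe sets 24 were lower and 18 higher (27 and 15 with quantile normalization), with Ubtf, a factor of RNA polymerase I, at 2.53 ± 0.18 and Nhp2, of the box H/ACA particles, at -1.85 ± 0.15. Of 9 probe sets of paralogues 7 were lower and 0 higher, 8 and 0 with quantile normalization and 9 and 0 with median centring. Rps27l, known as a p53 target, fell at 3 of 3 probe sets, with changes of -2.21, -1.75 and -1.34, and Rps4l had -2.57 ± 0.19. Of 33 probe sets of mTOR, MYC and p53 regulators 15 were higher and 7 lower, but 11 and 12 with median centring, with the mTOR activator Rheb at -1.70 ± 0.099 and the p53 inhibitor Mdm4 at 2.39 ± 0.15 at 1 probe set and -1.31 at another. Of 140 mitochondrial ribosomal protein probe sets 63 were lower and 35 higher (69 and 33 with quantile normalization), with Mrpl27 at -2.22 and Mrpl34 at 3.82.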

How the data were processed

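The authors deposited 1 intensity value per probe set and array on a linear scale. Per the submitters' processing notes, MAS5 and Affymetrix Expression Console were used, and no version is given in the sources used here. Every array had a trimmed mean (2% left out at each end) of 500, so each had been scaled to that target. Values were taken as log2(signal + 16), which understates changes of dim probe sets; probe sets whose mean log2 lay above the 40th percentile were kept (27022, controls excluded). One model with 4 groups was fitted to the 14 arrays in R 4.3.3 by limma 3.58.1, with moderated variances that follow a trend on the mean level. Tests were two-sided, with Benjamini-Hochberg adjustment over all probe sets, or all differences, and a threshold of 0.05. P-values measure the spread between these samples. The number of arrays limits the precision.

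Of 45037 probe sets, 34945 had 1 symbol, 932 several and 9160 none listed; symbols are the platform's, and all 42 member genes were found in RefSeq by gene ID. For genotype comparisons without a call, the text names the 4 highest and 4 lowest changes; for stage, the 10 highest and 10 lowest whose arrays do not overlap, at the brightest probe set (highest mean log2) of a gene; for probe sets of a gene, the 10 genes with the largest called difference; of other lists, up to 3 members by p; and always Rplp0, Rplp2, Rpsa, Rps6, Rpl11, Rpl22, Rps19, Rps4x and Rpl38. Others were named after their values were seen. The members and lists were chosen with earlier results of these data known. Correlations of deviations from group means between same-numbered control and knockout arrays were 0.0639, 0.0204 and -0.0404 at E14.5. At E16.5 they were 0.150, -0.0184, 0.0562 and 0.378. The last, of the replicate 4 arrays, was the highest of any control and knockout pair within a stage. Replicate 4 was also the highest array for most ribosomal protein probe sets in both E16.5 groups. The other same-numbered correlations were 0.150 or below, and no pairing was used. The steps were tested on simulated data. Plots used matplotlib 3.10.9 under Python 3.11.15.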

Additional observations from a re-analysis of the deposited data

Results flagged for a closer look

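In 56 groups (28 named probe sets in the 2 groups of 4 arrays), 6 held an array that stood far from the other 3; chance alone gives about 1 in 20. In E16.5 knockouts, replicate 4 stood above the others for Rps7 1419364_a_at (18304 against 13335 to 14074), Rps19 1449243_a_at (10761 against 8570 to 8857) and Rps18 1455572_x_at (22923 against 13290 to 14607). That array was the highest knockout array for 67 of the 85 probe sets, and its bioB control was the highest of all arrays at 18373. In E16.5 controls, replicate 4 was likewise the highest control array for 64 of the 85, with a bioB control of 5909. Replicate 1 of the E16.5 knockouts stood above the others for Rpl41 1454639_x_at (742 against 422 to 471) and had a bioB control of 10843. In E16.5 controls, Rpl14 1422128_at had 3698 in replicate 2 against 1764 to 1982, and Rps10 1436384_at had 126 in replicate 3 against 73.6 to 76.3.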

How the results depend on the processing

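Each of 91 results was recomputed under up to 27 alternatives, 14 of which left out an array, which gave 1655 values; 1573 kept their direction and side of the threshold (or stayed within 1.5 times for a count). The covariate of the Gapdh 3′ and 5′ control probe sets has ranges that do not overlap between stages. With it, ribosomal protein calls between stages were 0 higher and 19 lower in controls and 0 higher and 35 lower in knockouts. Calls between probe sets of a gene were 0 higher and 0 lower in controls, and 4 higher and 2 lower in knockouts. Over all probe sets and all differences, stage calls were also far fewer with this covariate. For all probe sets they were 1261 higher and 712 lower in controls and 2156 higher and 1188 lower in knockouts. Log2 values that changed sign there were Rpl19 at E16.5 (0.037), between stages Rpl39 (0.75 in controls, 0.18 in knockouts), Rpl14 (-1.08, -0.83) and Rps25 (-0.41, -0.39), the interaction of Rpl37 (-0.071; -0.062 without E16.5 knockout replicates 1 and 4), and differences within Rpl7 1426163_x_at (0.28, 0.49) and Rpl13a 1417608_a_at (0.27, 0.14). With quantile normalization the stage calls were 20 higher and 40 lower in controls and 16 and 40 in knockouts. Over all probe sets they were 8234 higher and 10086 lower in controls and 7870 and 9699 in knockouts. In that setting the differences were 10 higher in controls and 8 higher and 19 lower in knockouts. The signs of differences turned for Rps10 1436384_at (-0.11, -0.17), Rpl35 1454833_at (-0.24, -0.054) and Rps3 1455600_at (-0.28, -0.24). Median centring left 3 higher in knockouts, and eBayes without a trend 12 differences higher in knockouts. The cause was not tested. With fewer probe sets tested, counts fell by construction: 1 probe set per gene gave 3 higher and 36 lower in controls and 3 and 35 in knockouts, and _at and _a_at probe sets alone 34 lower in both, with 11 differences higher and 5 lower in both.

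Leaving out each array in turn, the knockout calls at E16.5 ran from 0 to 2 higher, the 2 being Rpl7 1426163_x_at and Rpl37 without knockout replicate 2; stage calls were 5 to 6 higher and 72 to 73 lower in controls and 5 to 6 and 70 to 72 in knockouts, and differences 15 to 18 higher and 10 to 12 lower, and 16 to 20 and 10 to 13. The knockout change of Rpl39 at E14.5 ran from -0.45 to 0.11, and its interaction from -0.53 to 0.067. With the replicate number as a block, the counts were 6 higher and 73 lower in controls, 6 and 72 in knockouts, 19 and 11, and 18 and 12 for differences, and 0 for the knockout comparisons; over all probe sets, the block gave 9 higher and 3 lower at E14.5 and 155 and 99 at E16.5, against 4 and 2, and 145 and 103.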
